A study of Homo sapiens with 2 samples.

Results

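All 39 human HOX genes were represented on the arrays, 11 of the HOXA, 10 of the HOXB, 9 of the HOXC and 9 of the HOXD cluster. They were taken as every gene probe whose name on the array was HOXA, HOXB, HOXC or HOXD followed by a number and nothing more, which gave 43 of 34127 gene probes and 39 of 27267 genes. HOXA9, HOXA10, HOXB2 and HOXD9 had 2 probes each and the other 35 genes had 1. The RNA came from RMG1 cells, a line of human clear cell ovarian adenocarcinoma grown in DMEM/F12 medium with 10% fetal bovine serum. The cells were sorted by the ALDEFLUOR assay, in which aldehyde dehydrogenase turns a substrate into a fluorescent product that stays in the cell, into an ALDH+ population with high and an ALDH- population with low activity. The study used ALDH+ cells as cancer stem-like cells, and the comparison asked which transcripts differed between the sorted populations of the same line. Total RNA of 1 ALDH+ and 1 ALDH- extract was hybridised on 2 two-color arrays, with ALDH+ RNA in Cy5 (red) on array 1 and in Cy3 (green) on array 2. Because both arrays carried the same extracts, they were counted as 1 replicate, the spread between them is technical, and no test could be run.

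HOX genes encode homeodomain transcription factors that give cells of the embryo their position along the head-to-tail axis. They lie in 4 clusters, and genes with the same number in different clusters are paralogues that arose from one ancestral gene. Within a cluster the low numbers, at the 3' end, are used early and towards the head, and the high numbers, at the 5' end, late and towards the tail. In the female reproductive tract HOXA9, HOXA10, HOXA11 and HOXA13 are known for marking successive stretches of the Müllerian duct, from the oviduct to the vagina. HOX proteins bind DNA with partners of the PBX, MEIS and PKNOX family, and Polycomb and trithorax proteins keep the clusters silent or active.

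Of the 43 HOX probes, 7 lay in one stretch of the genome and read, in a frame without a stop, at least 1 of 5 motifs of 4 residues from the homeodomain. The motifs are the arginine-rich start of the second helix and stretches of the recognition helix, which lies in the major groove of DNA. They are shown because this domain is the part most alike among the genes, and so the place where a probe could pick up a paralogue. The capitals mark the codons of the motifs, all probes run 5′ to 3′ along the transcript, and positions are on hg19, the build in the scanner files.
HOXA5 (chr7:27181547-27181606, minus strand): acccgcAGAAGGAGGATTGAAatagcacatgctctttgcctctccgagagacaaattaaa
HOXB2 (chr17:46620897-46620956, minus strand): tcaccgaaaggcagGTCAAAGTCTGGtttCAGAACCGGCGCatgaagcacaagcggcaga
HOXC5 (chr12:54428108-54428167, plus strand): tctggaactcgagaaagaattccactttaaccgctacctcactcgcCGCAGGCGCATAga
HOXC10 (chr12:54383100-54383159, plus strand): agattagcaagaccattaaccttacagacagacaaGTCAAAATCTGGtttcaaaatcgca
HOXC12 (chr12:54350226-54350285, plus strand): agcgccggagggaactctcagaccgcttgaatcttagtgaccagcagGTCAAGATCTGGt
HOXD8 (chr2:176996109-176996168, plus strand): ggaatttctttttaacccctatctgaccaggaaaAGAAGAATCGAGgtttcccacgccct
HOXD9 (chr2:176988842-176988901, plus strand): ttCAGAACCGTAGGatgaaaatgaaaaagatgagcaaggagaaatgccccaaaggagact
Over all 899 pairs of HOX probes of different genes, the median of each probe's longest stretch of bases identical to another was 9 of 60. The longest such stretch was 13 bases. These stretches compare probes with each other and not with the transcripts of paralogues, so cross-hybridisation between paralogues was not tested.

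A probe was called well above background in a channel where the array software flagged more than 50% of its spots so, and a gene was called measured where 1 population or the other passed this call for a probe of it on array 1 and on array 2. By this rule 23 of the 39 HOX genes were measured (59.0%), against 50.3% of all 27267 genes. All 23 were well above background in both populations (46.7% of all genes were), and no HOX gene was measured in 1 population alone. The clusters differed in how many members were measured, with 8 of 11 HOXA, 9 of 10 HOXB, 6 of 9 HOXD and 0 of 9 HOXC genes. The measured genes were HOXA2 to HOXA7, HOXA9 and HOXA10, then HOXB2 to HOXB9 and HOXB13, and HOXD1, HOXD3 and HOXD8 to HOXD11. Along the clusters, 8 of 12 genes of paralogue groups 1 to 4, 8 of 11 of groups 5 to 8 and 7 of 16 of groups 9 to 13 were measured. Groups 2, 3 and 7 were measured in every cluster that has them, and group 12 in neither. These counts describe the arrays as read in RMG1 cells and are not a test of one cluster against another.

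**Figure D1:**
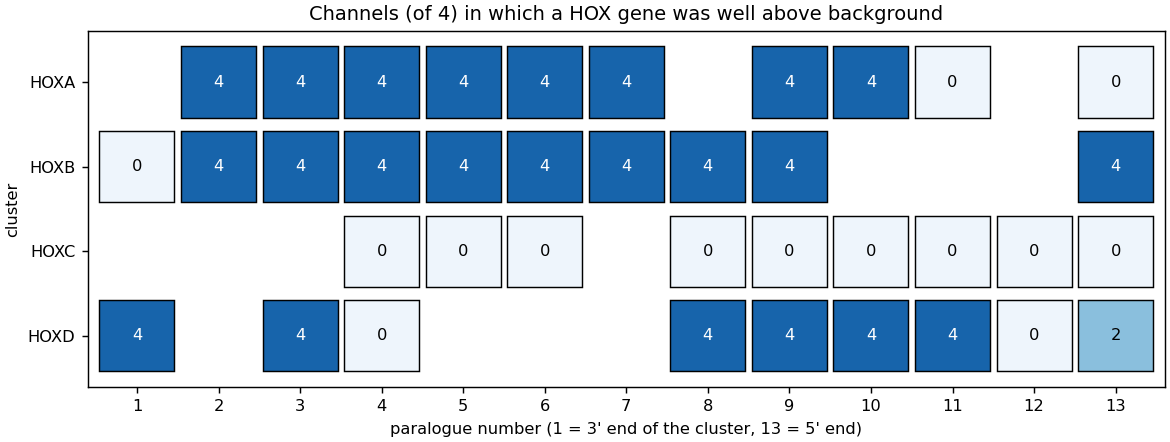
Each box is a HOX gene shown, placed by paralogue number (horizontal axis) and cluster (vertical axis), and its number is how many of the 4 channels (ALDH+ and ALDH- on each of 2 arrays) were well above background, for the probe of the gene with more such channels. Places without a box hold no value. All 9 HOXC boxes hold 0, HOXD13 holds 2, and the 23 measured genes hold 4.

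No HOXC gene passed the call in any channel. Its 9 probes lay between 43.2 and 63.2 in ALDH+ and between 41.0 and 50.7 in ALDH- cells in Cy5, and between 113 and 151 and between 111 and 154 in Cy3. The 153 negative control spots had medians of 45.1 (array 1) and 43.1 (array 2) in Cy5 and of 135 and 127 in Cy3, so that a HOXC probe was 0.82 to 1.40 times the median of its array and dye. HOXC6 exceeded the 95th percentile of the negative control spots in ALDH+ cells on both arrays (59.8 against 59.1 in Cy5 and 151 against 146 in Cy3). By that rule 1 of 9 HOXC genes was called, and the share of all genes so called is not given. None exceeded the 99th percentile in this way. The 2 other probes inside the HOXC span (chr12:54340034-54449814, from the first to the last HOXC probe) were not measured either. One was HOTAIR, a long RNA known for bringing Polycomb to other loci, which read 43.8 and 43.3 in Cy5 and 136 and 147 in Cy3 for ALDH+ and ALDH- cells. The other names no gene in the files.

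Outside HOXC, the genes below the call lay at the ends of the clusters or, for HOXD4, within one. HOXB1, at the 3' end of its cluster, read 50.3 in ALDH+ and 48.7 in ALDH- cells in Cy5. HOXA11 (62.7 and 55.0) and HOXA13 (60.9 and 51.3), the pair of Müllerian HOXA genes known from the lower tract, and HOXD4 (57.9 and 55.3) and HOXD12 (51.0 and 49.0) were likewise below the call in all 4 channels. In Cy3 they and HOXD13 lay between 122 and 162 in ALDH+ and between 128 and 175 in ALDH- cells. HOXD13, known for its part in forming the digits, was well above background in the Cy5 channel of each array, at 88.0 in ALDH+ and 61.1 in ALDH- cells, and in neither Cy3 channel (162 and 175). In Cy5 it was 1.95 and 1.42 times the negative control median. Its call therefore moved with the dye and not with the population, and the part of the dye in it was not tested. For genes below the call no ratio is given.

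**Figure D2:**
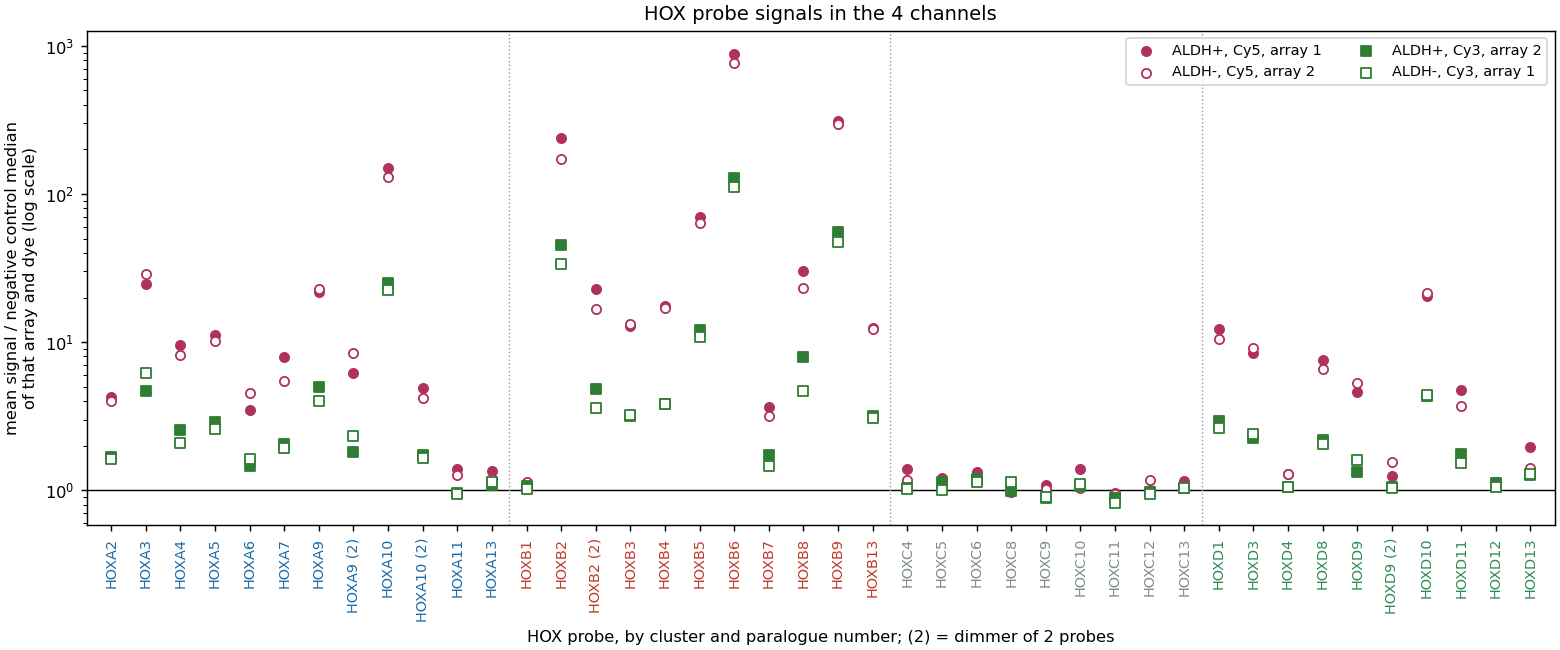
Mean signal of HOX probes (horizontal axis, ordered by cluster and paralogue number) in the 4 channels, divided by the median of the negative control spots of that array and dye (vertical axis, log scale). Circles are Cy5 and squares Cy3, filled for ALDH+ and open for ALDH- cells, and the line at 1 is the negative control median. Filled and open symbols of a dye lie close together for the measured genes, HOXC probes lie between 0.82 and 1.40, and HOXB6 reaches 885.

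In the measured genes the populations lay close to each other. Ratios of ALDH+ to ALDH- cells were taken on the log2 scale from background-corrected, loess-normalised spots, and each gene's value is the mean of its brightest measured probe over the 2 arrays with the SD between them (n = 2 arrays of the same extracts). The 23 genes ran from -0.44 (HOXA3, 0.736 times the ALDH- level) to 0.50 (HOXB8, 1.42 times). None was more than 2-fold higher in ALDH+ cells (0.211% of the 13720 genes measured were) and none more than 2-fold lower (0.707% were). None passed 1.5-fold either, although HOXB8 did with median centring (0.60) and HOXD9 with the ratio of the array software (-0.61). The share of all measured genes past 1.5-fold is not given, so this count is no result about HOX genes. The median of the HOX genes was -0.0052, with 11 above and 12 below 0, where the median of all measured genes was -0.0023 and 49.6% lay above 0. The median size of the log2 ratio, without its sign, was 0.14 for HOX and 0.16 for all measured genes, and the median SD between the arrays was 0.066 and 0.11. The sign was the same on both arrays for 18 of the 23 HOX genes, 9 in each direction, and for 69.7% of all measured genes. HOXB8 alone lay outside the 5th to 95th percentile of all measured genes (-0.57 to 0.39), at rank 302 of 13720 from the highest. With median centring of each array in place of the loess curve, the HOX median was 0.15 and that of all measured genes 0.073, and 17 of 23 HOX genes and 61.2% of all measured genes lay above 0. HOXA10, HOXB4, HOXB5, HOXB6, HOXB9 and HOXB13 turned from below to above 0 there, and HOXB5 also did so with the ratio of the array software and with an offset of 10.

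**Figure D3:**
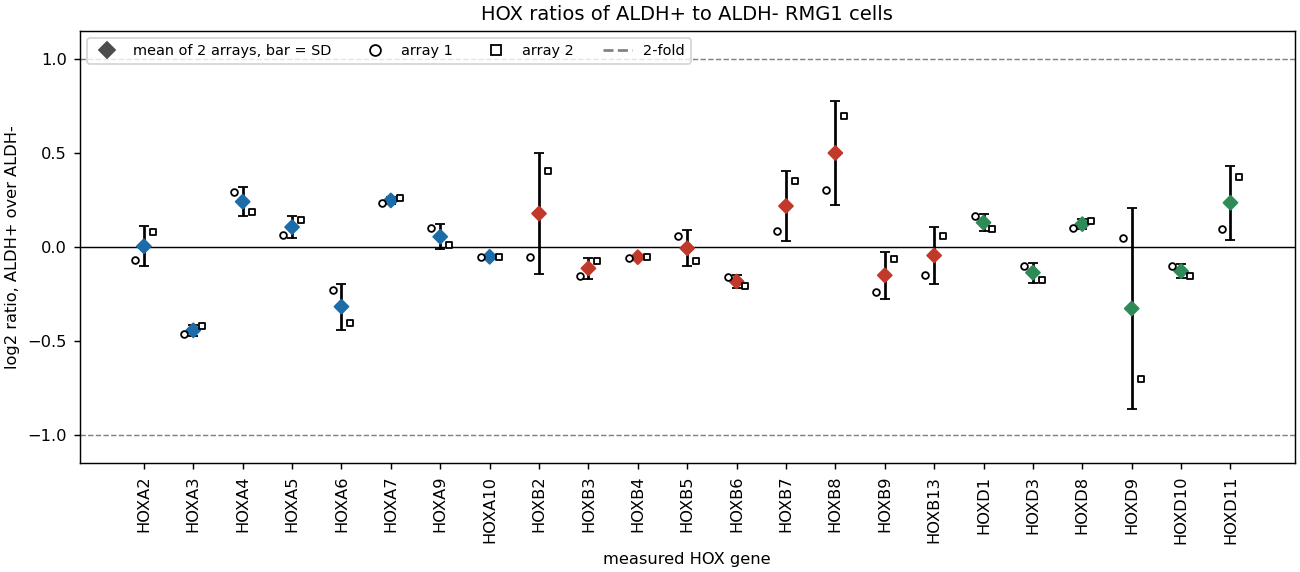
Log2 ratio of ALDH+ to ALDH- RMG1 cells (vertical axis) for the 23 measured HOX genes (horizontal axis), as the mean of 2 arrays (diamonds, coloured by cluster) with the SD between them (bars) and each array (circles and squares). Dashed lines mark 2-fold. All means lie between -0.44 and 0.50, and the longest bar is that of HOXD9, whose arrays lie at 0.051 and -0.70.

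Signals below are the mean intensities of a probe before normalisation, first in Cy5 (ALDH+ on array 1, ALDH- on array 2) and then in Cy3 (ALDH+ on array 2, ALDH- on array 1). Cy5 read brighter than Cy3 for bright probes, so values are set side by side within a dye, and levels of different probes cannot be compared. The 2 values of a dye come from different arrays and were not scaled to each other. KRT18, a keratin, read 38534 in ALDH+ and 29463 in ALDH- cells in Cy5 and 17666 and 13491 in Cy3. Its log2 ratio was 0.011 ± 0.076, so the order of the populations within a dye does not by itself give a direction. Fewer expressing cells and less RNA per cell cannot be told apart in RNA of sorted populations. In Cy3, HOXA2, HOXA6, HOXB7, HOXD11, the measured HOXD9 probe and the dimmer HOXA10 probe lay near the negative controls. They were there at 1.33 to 1.77 times the negative control median, which limits what their ratios show. The dimmer HOXA9 probe (1.80 times in ALDH+ and 2.31 in ALDH- cells) and HOXA7 (2.06 and 1.92) lay not far above this range.

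Among the genes of the 3' end, paralogue group 3 lay below 0 in each of its 3 clusters. Here and below, a sign shared within a paralogue group rests on few genes, is described after the values were seen, and was not tested. HOXB3 and HOXD3 were nearer to 0 than the median size of 0.16 of all measured genes. HOXA3, known for its part in the pharyngeal arches and thymus, read 1108 in ALDH+ and 1237 in ALDH- cells in Cy5 and 598 and 835 in Cy3. Before normalisation ALDH- cells were the higher in both dyes, and the log2 ratio was -0.46 on array 1 and -0.42 on array 2 (mean -0.44 ± 0.029, SD). HOXB3 read 577 and 576 in Cy5 and 401 and 435 in Cy3, with log2 ratios of -0.15 and -0.072 (mean -0.11 ± 0.057). The mean of HOXB3 was nearer to 0 than that of HOXA3. Its Cy5 signals were close, but they come from different arrays that were not scaled to each other. HOXD3 read 380.2 and 391 in Cy5 and 287 and 322 in Cy3, with log2 ratios of -0.098 and -0.17 (mean -0.14 ± 0.053). All 3 kept this sign under each of the other background and scaling settings.

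Group 2, whose genes pattern the hindbrain and second pharyngeal arch, had small differences. HOXA2 read 192 in ALDH+ and 173 in ALDH- cells in Cy5 and 212 and 219.6 in Cy3, with log2 ratios of -0.070 and 0.080 (mean 0.0052 ± 0.11), a mean well under the SD. For HOXB2 the brighter probe read 10829.6 and 7455 in Cy5 and 5757 and 4543 in Cy3, and its log2 ratio was -0.050 on array 1 and 0.41 on array 2 (mean 0.18 ± 0.32). The homeodomain probe of HOXB2 printed above read 1032 and 717 in Cy5 and 616 and 487 in Cy3, with a mean of 0.39 ± 0.0040. Before normalisation ALDH+ cells were the higher in both dyes for both HOXB2 probes, but after it the arrays disagreed in sign for the brighter one. The probes differed by 0.21 on the log2 scale, which is less than the SD of the brighter probe.

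Of groups 1 and 4, HOXD1, HOXA4 and HOXB4 were measured. HOXD1 was printed on 10 spots per array, which gives the spread within an array. Its mean signal was 555 in ALDH+ and 453 in ALDH- cells in Cy5 and 371 and 356 in Cy3. The log2 ratio was 0.16 ± 0.095 (SD, 10 spots) on array 1 and 0.098 ± 0.062 on array 2, with 9 of 10 spots above 0 on each, and a mean of 0.13 ± 0.047 between arrays. HOXD1 thus differed by less than 1.5-fold with a spot-to-spot SD of the same order as the difference. HOXA4 read 433 and 353 in Cy5 and 324 and 281 in Cy3, with log2 ratios of 0.30 and 0.19 (mean 0.24 ± 0.076). HOXB4, known for expanding blood stem cells when forced on, read 790.3 and 729 in Cy5 and 489 and 516 in Cy3, with -0.055 and -0.051 (mean -0.053 ± 0.0034). HOXA4 was above 0 under every setting run, and HOXB4 was not of one sign.

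In the central groups 5 to 8 the measured genes of groups 7 and 8 lay above 0. HOXB8, a regulator of myeloid progenitors, read 1371 in ALDH+ and 1003 in ALDH- cells in Cy5 and 1008 and 633 in Cy3. Before normalisation ALDH+ cells were the higher in both dyes, and the log2 ratio was 0.31 and 0.70 (mean 0.50 ± 0.28). HOXD8, whose probe lies in the homeodomain, read 341 and 286 in Cy5 and 279 and 277 in Cy3, with 0.10 and 0.14 (mean 0.12 ± 0.027). HOXA7 read 356 and 237 in Cy5 and 262 and 260.0 in Cy3, with 0.24 and 0.26 (mean 0.25 ± 0.019). HOXB7, near the negative controls in Cy3, read 163 and 137 in Cy5 and 219 and 197 in Cy3, with 0.087 and 0.35 (mean 0.22 ± 0.19). The means of HOXB7 and HOXB8 rest more on array 2, where they were over 2 times as far from 0 as on array 1.

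Group 6 lay below 0 with the loess curve. The HOXB6 probe had the strongest HOX signals, at 39886 in ALDH+ and 32864 in ALDH- cells in Cy5 and 16345 and 14984 in Cy3, or 885 and 762 and 128 and 111 times the negative control median. These signals were higher in ALDH+ cells in both dyes before normalisation. The log2 ratio after loess was -0.16 and -0.21 (mean -0.18 ± 0.033), and with median centring it was 0.21. The direction of HOXB6 therefore depends on how the arrays are scaled. HOXA6, near the negative controls in Cy3, read 156 and 195 in Cy5 and 185 and 219.0 in Cy3. Its log2 ratio was -0.23 and -0.40 (mean -0.32 ± 0.12), and stayed below 0 under every setting run. In group 5, HOXA5, measured with a homeodomain probe, read 506 and 442 in Cy5 and 370.0 and 349 in Cy3, with 0.067 and 0.15 (mean 0.11 ± 0.057). HOXB5 read 3154 and 2728 in Cy5 and 1539 and 1459 in Cy3, with 0.062 and -0.072 (mean -0.0052 ± 0.095).

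In groups 9 to 13, the Müllerian genes HOXA9 and HOXA10 were measured with 2 probes each. After loess the probes of each gene differed in sign. The brighter HOXA9 probe read 978 in ALDH+ and 978 in ALDH- cells in Cy5 and 638 and 543 in Cy3, with log2 ratios of 0.10 and 0.0093 (mean 0.056 ± 0.066). The other read 277 and 364 in Cy5 and 229 and 312 in Cy3, with a mean of -0.46 ± 0.12. The difference of 0.52 between them was larger than the SD of either, and the mean over both probes was -0.20. Both lie on the transcript NM_152739, at chr7:27203145-27203204 and chr7:27202588-27202647 on hg19, and with 1 extract per population it is not known which one follows the gene. HOXA10 read 6749 and 5622 in Cy5 and 3167 and 3024 in Cy3 with a probe that spans 1235 bases of the genome, and so crosses an intron, and its mean was -0.051 ± 0.0022. The second HOXA10 probe read 222 and 179.7 in Cy5 and 219 and 223.5 in Cy3, with a mean of 0.14 ± 0.015. Their difference of 0.19 was larger than the SD of either, and the mean over both probes was 0.045. With median centring the brighter HOXA10 probe was at 0.17, so its sign depends on how the arrays are scaled. Neither HOXA10 probe passed 1.5-fold.

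HOXB9 read 13931 in ALDH+ and 12761 in ALDH- cells in Cy5 and 7080 and 6366 in Cy3, with log2 ratios of -0.24 and -0.061 (mean -0.15 ± 0.12) after loess and 0.15 with median centring. HOXB13, known as a marker of the prostate and distal colon, lies apart from the other HOXB genes at the 5' end. It read 559 and 526 in Cy5 and 405 and 419 in Cy3, or 3.1 to 12.4 times the negative control median, with -0.15 and 0.062 (mean -0.044 ± 0.15). HOXB13 was thus measured in both populations while HOXA13 and HOXC13 were not measured in either. PRAC1, near HOXB13 and inside the same span, was not measured (53.9 and 52.3 in Cy5). The transcript NCRNA00253, whose probe lies between those of PRAC1 and HOXB13, was measured. It read 1648 and 1576 in Cy5 and 974 and 824 in Cy3, with a mean log2 ratio of 0.064 ± 0.088. The transcript ENST00000432056, also read between them, was not measured.

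Of the HOXD genes of this end, known from limb and genital development, HOXD10 read 926 in ALDH+ and 923 in ALDH- cells in Cy5 and 553 and 591 in Cy3, with -0.10 and -0.15 (mean -0.13 ± 0.037). HOXD11 read 213 and 160.3 in Cy5 and 225 and 206 in Cy3, with 0.098 and 0.38 (mean 0.24 ± 0.20). For HOXD9 the measured probe read 206 and 229 in Cy5 and 169 and 216 in Cy3, and its log2 ratio was 0.051 on array 1 and -0.70 on array 2 (mean -0.33 ± 0.53). HOXD9 had the widest spread of the measured HOX genes, and the arrays disagreed in sign. Its homeodomain probe, printed above, was well above background only in ALDH- cells in Cy5, at 67.3 against 56.5 in ALDH+ cells. A direction for HOXD9 cannot be given.

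**Figure D4:**
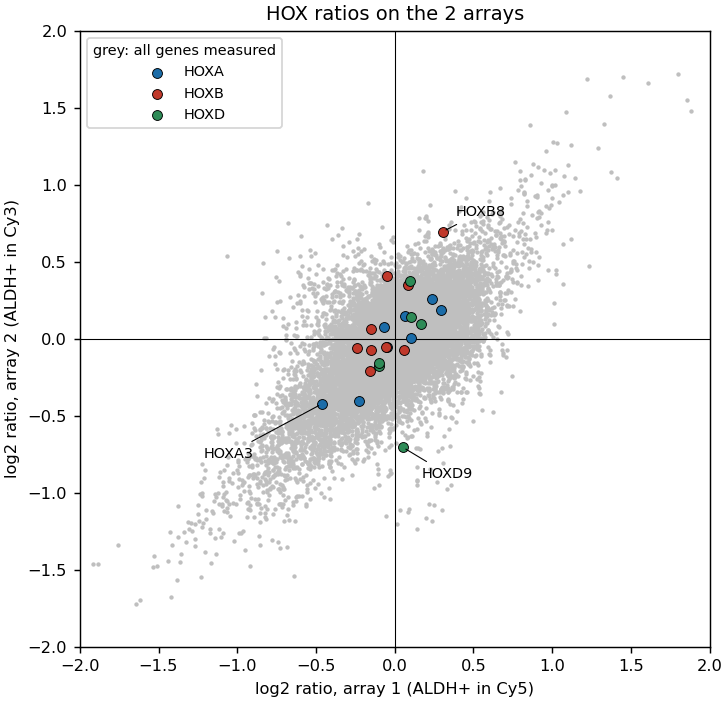
Log2 ratio of ALDH+ to ALDH- cells on array 1 (horizontal axis, ALDH+ in Cy5) against array 2 (vertical axis, ALDH+ in Cy3), for all 13720 measured genes (grey, 1 gene outside the axes) and the measured HOX genes (coloured by cluster). The HOX points lie within the grey cloud, with HOXA3 at -0.46 and -0.42, HOXB8 at 0.31 and 0.70, and HOXD9 at 0.051 and -0.70.

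Other transcripts inside the clusters were read by 17 probes, 5 of them measured. Over all genes, each counted by any of its probes, the share measured was 50.3%, which is not a share of probes. None of the 5 differed by more than 2-fold (0.211% of all measured genes were higher and 0.707% lower by this threshold). In the HOXA span 0 of 6 were measured. HOXA11-AS, the antisense partner of HOXA11, was well above background in the Cy5 channel of each array, at 118 in ALDH+ and 102 in ALDH- cells, as HOXD13 was. In the HOXB span (chr17:46607916-46802203) 2 of 6 were measured. HOXB-AS3 was not among them, at 43.0 and 43.9 in Cy5. In the HOXD span (chr2:176960600-177055431) 3 of 3 were measured, HAGLR, an RNA antisense to the cluster, with a log2 ratio of -0.063 ± 0.015. The transcript ENST00000313266, read on the minus strand at chr2:176993495-176993554 between the HOXD9 and HOXD8 probes, had the value farthest from 0 of these, at -0.34 and -0.81 (mean -0.58 ± 0.33).

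The partners and regulators of HOX genes were described from lists, and no member of any list passed 2-fold. Over all genes 50.3% were measured. Of the genes measured 49.6% lay above 0, 0.211% were more than 2-fold higher and 0.707% more than 2-fold lower. A count of 0 past 2-fold is thus near the share over all genes and is no result about these lists. Of the 9 PBX, MEIS and PKNOX genes 6 were measured, with a median log2 ratio of 0.16, 4 of them above 0 (0.097 and 3 with median centring, 0.28 and 4 with the ratio of the array software), from MEIS3 (-0.41 ± 0.12) to PBX4 (0.46 ± 0.041). PBX2 was at 0.16 ± 0.12 and PBX3 at 0.34 ± 0.25. Of 33 Polycomb and trithorax genes 28 were measured, with a median of -0.10 and 21 below 0. They ran from CBX6 (-0.77 ± 0.10), a chromodomain protein of Polycomb repressive complex 1, to RNF2 (0.27 ± 0.021), its ubiquitin ligase, and EZH2, the histone methyltransferase of repressive complex 2, was -0.19 ± 0.062. With median centring the median of this list was -0.0056 with 14 of 28 above 0, where that of all measured genes was 0.073 with 61.2% above 0. Of 11 retinoid receptor, CYP26 and CDX genes, which act upstream of HOX genes in the embryo, 6 were measured with a median of -0.14, from RXRA (-0.38 ± 0.14) to RXRB (0.084 ± 0.18). Of 15 genes on the array that flank the clusters 12 were measured, with a median of -0.042 that was 0.16 with median centring, from CBX5 (-0.24 ± 0.053) to SMUG1 (0.27 ± 0.20). CBX5 and SMUG1 flank the HOXC cluster and were well above background in all 4 channels.

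Of the cell type markers, all 6 epithelial and all 4 clear cell carcinoma markers were measured in both populations, and 0 of 5 fibroblast and 0 of 2 erythroid markers were. Markers measured in both populations cannot show which channel held ALDH+ RNA, and which ovarian line was used was not tested. Of 6 leukocyte markers on the array PTPRC, CD14 and CD79A were measured, and of 4 endothelial ones CDH5. In Cy5 CD79A read 2076 in ALDH+ and 2500.4 in ALDH- cells, CD14 312 and 207.5 with a log2 ratio of 0.45 ± 0.18, and PTPRC 93.1 and 110.3. Their part in the HOX values was not tested. ALDH1A1, an enzyme that the ALDEFLUOR assay detects and named here after its value was seen, was well above background in Cy5 only, at 82.9 in ALDH+ and 84.2 in ALDH- cells. It was thus not measured by the rule above, and it gives no check of the labels of the sort. Between 47.0% and 62.9% of gene probes were well above background in a channel, the higher shares in Cy5.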

How the data were processed

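Total RNA of sorted ALDH+ and ALDH- RMG1 cells was labelled with Cy3 and Cy5 and hybridised on 2 Agilent arrays with exchanged dyes. The deposited scanner files hold the mean and local background intensity of each spot and a log10 ratio of red over green, made with Feature Extraction (version 10.7.3.1 per the file headers, 8.5.1.1 per the labels). The deposited joined table repeats the log10 ratio of both arrays. Its 4 columns of signals were not used. The labels name RMG1, whereas the methods text names another line for the RNA.

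Intensities were corrected with normexp (offset 50) and normalised by loess within each array in limma 3.58.1 (R 4.3.3), with control spots at weight 0. No HOX spot was an outlier or saturated. Ratios were turned to ALDH+ over ALDH-, spots were averaged per probe, and the arrays were averaged. A gene was represented by its brightest measured probe, and the threshold was 2-fold. Only the step that makes the ratios was tested on simulated data, with changes larger than those of the HOX genes. The size recovered was checked for bright probes, and the call of detection was not simulated. Every measured HOX gene is named, and of each context list the highest and the lowest member. The members and lists were chosen with earlier results of these data known. All 43 probe names matched the RefSeq symbol of their transcript. Alternatives were other background corrections and scalings, the software's ratio, single arrays, other filters and rules for detection, and a 1.5-fold threshold. The number of arrays limits the precision. Some genes are counted but not reported here by name.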

Additional observations from a re-analysis of the deposited data

How the results depend on the processing

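The counts of HOX genes more than 2-fold higher and lower were 0 under each of the alternatives run. They were 0 at 1.5-fold with the reported values, where no share over all measured genes is given beside them. At 1.5-fold, HOXB8 passed with median centring (0.60) and HOXD9 with the ratio of the array software and the joined table (-0.61), and both did on array 2 alone (0.70 and -0.70). The median log2 ratio of the measured HOX genes was 0.15 with median centring and ran from -0.049 to 0.0093 on single arrays. Of 276 values of single genes under an alternative, 36 moved by more than the SD between the arrays and 16 changed sign. The value farthest from 0 was that of HOXD9 on array 2 alone (-0.70). With 2 arrays, neither can lie farther from their mean than the SD, so single-array values could not count as moved. Dropping the filter on dim probes, or asking for both populations, left every measured HOX value as it was. The joined table repeats the software's ratio. The 276 thus hold outcomes fixed in advance and do not measure stability. Without counting single arrays, 16 of the 23 genes kept one sign, 10 above and 6 below 0. With a signal above the 95th percentile of the negative control spots as the rule, 26 HOX genes were called, HOXC6 among them, and with the 99th percentile 24 (HOXD13 was added). On either array alone 24 were called, again with HOXD13 added. The shares of all genes called by these rules are not given, so these counts cannot be weighed against all genes. One setting, with the median of the negative control spots as the background, was added after seeing the data. No paired analysis was possible because there was 1 extract of each population. The depth of these results is limited by 2 arrays of the same RNA, so that a difference between ALDH+ and ALDH- cells of another sort was not measured.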

Other observations

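Of 13 other transcription factors of the developing urogenital tract, 7 were measured (50.3% of all genes were), with a median log2 ratio of -0.13. Of these 0 passed 2-fold, where 0.211% of all measured genes were higher and 0.707% lower by this threshold. PAX8, a factor of the Müllerian duct and the kidney, was the lowest, at 14453 in ALDH+ and 17905 in ALDH- cells in Cy5 and 6652 and 9622 in Cy3, with log2 ratios of -0.83 and -0.64 (mean -0.74 ± 0.14, SD of 2 arrays of the same extracts). EMX2 (-0.13 ± 0.058), LHX1 (-0.36 ± 0.13) and TBX2 (-0.25 ± 0.14) lay below 0 as well, MSX1 at 0.072 ± 0.015. GATA6 was the highest at 0.32 ± 0.55, with 0.71 on array 1 and -0.068 on array 2. PAX2, WT1, GATA4, FOXL2, MSX2 and TBX3 were not measured.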
